A study of Mus musculus with 12 samples.

Results

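The genotype difference of the later response was measured as the change between 0 h and 4 h in p38a-knockout-labelled dendritic cells (KO) minus the same change in wild-type-labelled cells (WT). It was read from 8 of the 12 arrays of the series, arrays A and B of KO at 4 h, KO at 0 h, WT at 4 h and WT at 0 h. The cells were primary dendritic cells from lymph nodes of C57BL/6 mice, held in culture at 37 C, and Pam3CSK4 was added at 1 mg/ml as labelled. The 0 h arrays are labelled as unstimulated in both genotypes. The series also holds KO and WT arrays at 2 h, which entered the shared estimate of the spread. The labels give no age, and how the knockout was made and which cells carry it are not given in the sources used here. Nothing says that arrays A and B came from separate animals or cultures, so a p-value here reflects variation between arrays that may be technical. No arrays without the ligand at 4 h were analysed here, so ligand and time in culture cannot be told apart.

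Pam3CSK4 is a synthetic lipopeptide recognised by the Toll-like receptor TLR2. The receptor signals through the adaptor MyD88 to NF-kB and to mitogen-activated protein kinases. p38a, encoded by Mapk14, is one of these kinases, and in immune cells it acts on transcription factors and on the stability of cytokine messages. Dendritic cells use the pathway to turn on cytokines, chemokines and co-stimulatory molecules that instruct T cells.

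Of 12792 genes tested, 6 passed in the difference of the 4 h response (0.0469% of genes, adjusted p under 0.05 by limma), 2 with a higher and 4 with a lower value in KO. The messages of Malt1 and Chrac1 had the higher values, and those of Ccl6, Sphk1, Col27a1 and Cd81 the lower ones. At an unadjusted p under 0.05 the number was 775 genes (6.06%), 278 higher and 497 lower. Each difference equals the gap between KO and WT at 4 h minus the gap at 0 h. For Chrac1 the gap passed at 4 h only, for Malt1 and Ccl6 at 0 h only, and for Sphk1, Cd81 and Col27a1 at both times, while 0 of the 6 genes had neither gap. Across the 6 genes the gap at 0 h was larger than the gap at 4 h for 5, and Chrac1 was the other one.

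These 6 calls rest on few arrays and on the processing. Of the 6, 0 passed without KO 4 h array A and 0 without WT 4 h array A. Without WT 0 h array B, WT 4 h array B, KO 0 h array A or KO 0 h array B, 2 of the 6 passed each time. Without KO 4 h array B 3 passed, and without WT 0 h array A 4 passed. In addition, 1 other gene passed in 4 of these fits, Polr3d without KO 0 h array A, Cd70 without KO 0 h array B, Clcn5 without KO 4 h array B and Sppl3 without WT 0 h array A. On the deposited scale, where trimmed means of the 8 arrays ran from 75.6 to 119, 2 genes passed and none of the 6 was among them. Those 2 were Lce1h and Prdm11. None of the 6 passed when all probe sets of each gene were averaged, or without the trend in the variance model. With no filter on low signals, Cd81 (adjusted p = 0.149), Chrac1 (0.136) and Col27a1 (0.0839) were lost, and with a pseudocount of 1, Cd81 (0.0513) and Chrac1 (0.0545). Trimmed-mean scaling lost Cd81 (adjusted p = 0.228), and a pseudocount of 64 lost Col27a1, at a difference of -0.47 (adjusted p = 0.397). With only the 8 arrays fitted, Cd81 and Col27a1 were lost (adjusted p = 0.154 each). All 6 genes kept the direction of their difference in every alternative listed under the dependence on processing.

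The promoters of 3 of the genes with a lower difference are shown because they are the 3 most negative calls with an entry, from 250 bases before to 50 bases after a transcription start, from RefSeq on GRCm38.p6. A window from the RefSeq table was counted for 4 of the 6 genes. This count does not show that the table lacks an entry for the others, and no window of Malt1 or Chrac1 was printed. The Ccl6 window is chr11:83593038-83593337 on the minus strand, the Sphk1 window is chr11:116530850-116531149 on the plus strand and is the first of 5 listed for that gene, and the Col27a1 window is chr4:63215162-63215461 on the plus strand. Capitals mark a match to the NF-kB motif.
Ccl6: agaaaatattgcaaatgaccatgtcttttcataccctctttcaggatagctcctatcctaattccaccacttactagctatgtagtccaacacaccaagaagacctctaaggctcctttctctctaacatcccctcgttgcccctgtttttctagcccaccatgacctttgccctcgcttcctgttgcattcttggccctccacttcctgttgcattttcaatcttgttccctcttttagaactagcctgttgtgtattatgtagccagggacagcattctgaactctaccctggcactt
Sphk1: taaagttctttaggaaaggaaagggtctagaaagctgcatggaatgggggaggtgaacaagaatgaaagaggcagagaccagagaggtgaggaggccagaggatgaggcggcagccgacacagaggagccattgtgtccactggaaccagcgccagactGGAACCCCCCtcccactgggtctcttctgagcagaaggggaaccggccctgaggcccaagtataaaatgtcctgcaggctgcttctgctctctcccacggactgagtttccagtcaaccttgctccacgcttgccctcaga
Col27a1: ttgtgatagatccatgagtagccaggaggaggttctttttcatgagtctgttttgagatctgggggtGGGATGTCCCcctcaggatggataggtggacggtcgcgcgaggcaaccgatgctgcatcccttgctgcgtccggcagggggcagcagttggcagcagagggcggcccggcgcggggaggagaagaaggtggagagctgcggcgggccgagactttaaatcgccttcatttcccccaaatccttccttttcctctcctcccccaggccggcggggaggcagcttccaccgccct
Both strands were searched for the AP-1 motif TGANTCA, the CRE motif TGACGTCA and the NF-kB motif. The Sphk1 and Col27a1 windows held 1 NF-kB match each, and the Ccl6 window held none of the 3 motifs. Among all 32851 windows of the table, 8.46% held an NF-kB match, 7.81% an AP-1 match and 1.79% a CRE match. These matches describe letters in a window and not binding.

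Malt1, the paracaspase that relays antigen receptor and C-type lectin receptor signals to NF-kB, had the most positive of the 6 differences. On the scale of log2(signal + 16) it measured 9.85 and 9.82 in KO arrays at 4 h, against 9.72 and 9.68 in WT arrays at 4 h. At 0 h it measured 8.99 and 9.04 in KO arrays, against 9.89 and 9.86 in WT arrays. The KO arrays lay above the WT arrays at 4 h and clearly below them at 0 h, with no overlap at either time. The difference of the responses was 0.99 ± 0.12 on the log2 scale (SE, adjusted p = 0.00501), with 1.03 on the A arrays and 0.96 on the B arrays. The message rose 1.77-fold in KO (log2 0.82, adjusted p = 5.4e-06), while in WT the log2 change was -0.17 (adjusted p = 0.208). Split by time, the gap was 0.13 at 4 h (adjusted p = 0.561) and -0.86 at 0 h (adjusted p = 4.56e-05). At 2 h the gap was -0.24 (adjusted p = 0.176), between the other two. All 3 probe sets of Malt1 had a positive difference, at 0.99, 0.53 and 0.47. Without KO 4 h array A the adjusted p was 0.06, and without WT 4 h array A it was 0.0596.

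Ccl6, a rodent CC chemokine of myeloid cells, had the most negative of the 6 differences. It measured 7.58 and 7.76 in KO arrays at 4 h, against 8.10 and 7.82 in WT arrays at 4 h. Before the ligand, at 0 h, values were 7.03 and 6.98 in KO arrays, against 5.97 and 5.96 in WT arrays. KO therefore started above WT and ended slightly below it, and the arrays did not overlap at either time. The difference was -1.33 ± 0.17 (adjusted p = 0.00501), with -1.58 on the A arrays and -1.08 on the B arrays. The message rose in both genotypes, by 0.66 in KO (adjusted p = 7.46e-04) and by 1.99 in WT on the log2 scale (adjusted p = 6.69e-09), the last being 3.99-fold. Its gap was -0.29 at 4 h (adjusted p = 0.276) and 1.04 at 0 h (adjusted p = 1.12e-04). By 2 h the gap was already -0.30 (adjusted p = 0.229). The second probe set, which has lower signals, gave -0.53. Without KO 4 h array A the adjusted p was 0.06, and without WT 4 h array A it was 0.0596.

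Sphk1, the kinase that makes sphingosine-1-phosphate, was the gene whose gaps passed at both times with opposite signs. It measured 8.21 and 8.37 in KO arrays at 4 h, against 8.82 and 8.71 in WT arrays at 4 h. The 0 h values were 8.16 and 8.09 in KO arrays, against 7.63 and 7.37 in WT arrays. KO was lower at 4 h and higher at 0 h, with no overlap at either time. The difference was -1.09 ± 0.15 (adjusted p = 0.0153). The log2 change in KO was 0.17 (adjusted p = 0.332), whereas WT rose 2.39-fold (adjusted p = 5.16e-07). The gap was -0.47 at 4 h (adjusted p = 0.0321) and 0.62 at 0 h (adjusted p = 0.00419). Neither genotype followed a straight course, because at 2 h the message was at 7.38 and 7.45 in KO and at 7.35 and 7.23 in WT, with a gap of 0.12 (adjusted p = 0.646). The second probe set gave -0.41. The adjusted p ran from 0.0115 to 0.143 when each of the 8 arrays was left out, and it stayed under 0.05 only without KO 4 h array B (0.0342) and without WT 0 h array A (0.0115).

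Cd81 encodes a tetraspanin, known from the co-receptor of B cells, and was strongly expressed in all groups. It measured 12.23 and 12.10 in KO arrays at 4 h, against 11.90 and 11.79 in WT arrays at 4 h. At 0 h it measured 10.97 and 10.94 in KO arrays, against 10.09 and 9.92 in WT arrays. KO was higher at both times with no overlap, by less at 4 h than at 0 h. The difference was -0.63 ± 0.10 (adjusted p = 0.0402). Both genotypes rose, KO by 1.21 (adjusted p = 9.39e-09) and WT by 1.84 (adjusted p = 7.18e-11) on the log2 scale. The gap was 0.32 at 4 h (adjusted p = 0.0289) and 0.95 at 0 h (adjusted p = 3.58e-06), and at 2 h it was 0.35 (adjusted p = 0.0157). Leaving out 1 array kept the call only for WT 0 h array A (adjusted p = 0.0127). For the other 7 arrays the adjusted p was between 0.0786 and 0.251.

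Col27a1, a fibrillar collagen gene known from cartilage, followed a like course at lower signal. It measured 8.67 and 8.52 in KO arrays at 4 h, against 8.11 and 8.19 in WT arrays at 4 h. Before the ligand, at 0 h, values were 7.03 and 7.21 in KO arrays, against 5.76 and 5.80 in WT arrays. KO was again higher at both times, and the distance was wider at 0 h. The difference was -0.89 ± 0.14 (adjusted p = 0.0402). The rise was 2.79-fold in KO (adjusted p = 5.2e-08) and 5.18-fold in WT (adjusted p = 1.91e-10). The gap was 0.45 at 4 h (adjusted p = 0.0307) and 1.34 at 0 h (adjusted p = 3.58e-06), with 0.34 at 2 h (adjusted p = 0.107). The second probe set of Col27a1 gave a difference of only -0.06, although its gap was 0.55 at 4 h and 0.60 at 0 h. The call was lost without any 1 of the 8 arrays, at adjusted p between 0.0646 and 0.251.

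Chrac1, a histone-fold subunit of a chromatin remodelling complex, was the gene whose gap passed at 4 h only. It measured 8.86 and 8.84 in KO arrays at 4 h, against 8.30 and 8.30 in WT arrays at 4 h. The 0 h values were 8.34 and 8.50 in KO arrays, against 8.81 and 8.71 in WT arrays. The order of the genotypes turned over, with no overlap at either time. The difference was 0.90 ± 0.15 (adjusted p = 0.0402). The message rose by 0.43 in KO (adjusted p = 0.00754) and fell by 0.46 in WT (adjusted p = 0.00465). The gap was 0.55 at 4 h (adjusted p = 0.00884) and -0.34 at 0 h (adjusted p = 0.0985). By 2 h the gap was already 0.37 (adjusted p = 0.0837). These values come from a probe set of the _x_at kind, whose probes may also match other transcripts. The other probe set gave 0.21, and the adjusted p was 0.944 when _x_at and _s_at sets were left out. The call was also lost without any 1 of the 8 arrays, at adjusted p between 0.0865 and 0.213.

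**Figure D1:**
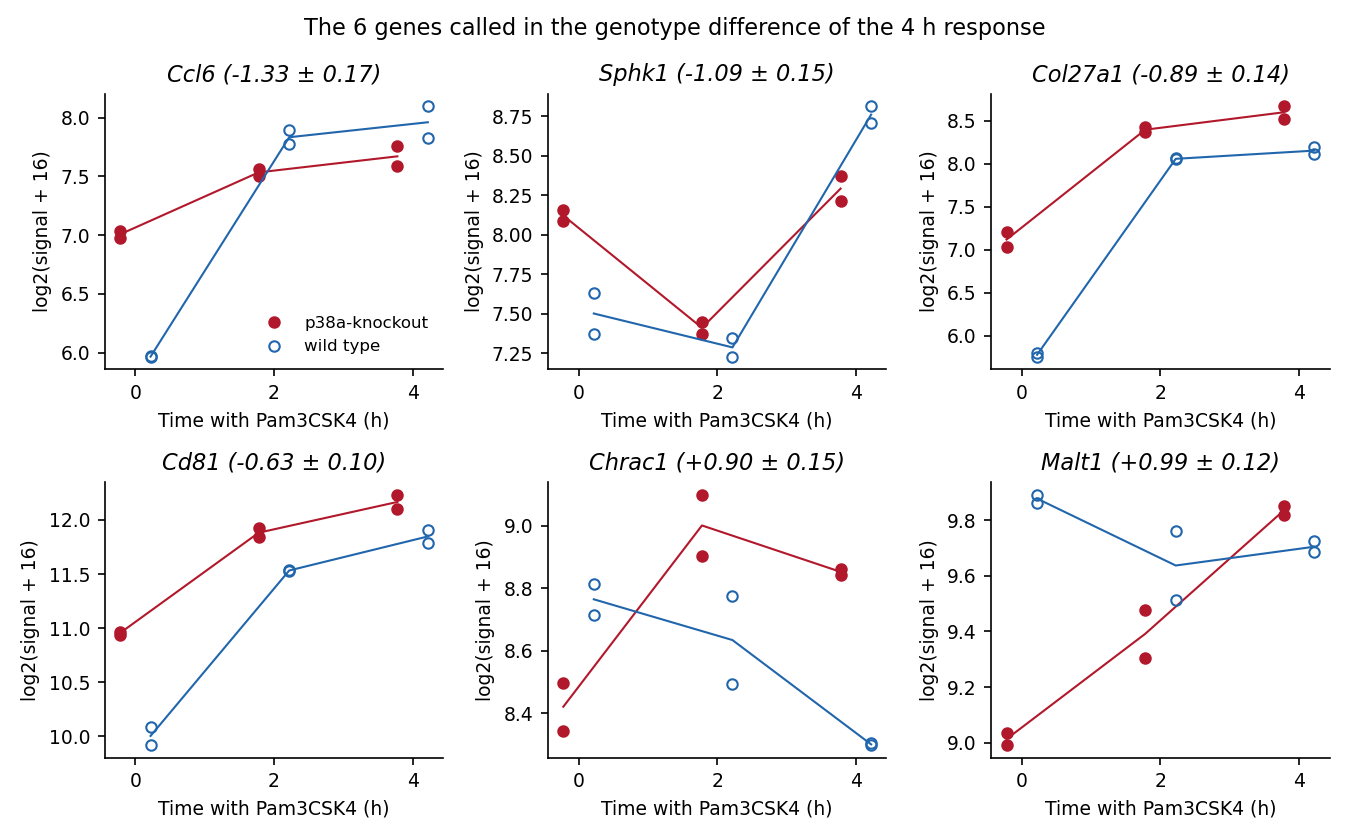
Normalized level, as log2(signal + 16), of the 6 genes that passed, by time with Pam3CSK4 in hours. Filled red points are single KO arrays, drawn left of the open blue points of single WT arrays, lines join the means of 2 arrays, and titles give the difference of the 4 h response with its SE. Ccl6, Sphk1, Col27a1 and Cd81 start higher in KO and rise more in WT, while Malt1 starts lower in KO.

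Because KO and WT differed before the ligand, the same 6 genes were set against the gaps of all genes. At 4 h the gap passed for 306 genes, 145 higher in KO (1.13%) and 161 lower (1.26%). At 0 h it passed for 422 genes, 249 higher in KO (1.95%) and 173 lower (1.35%). At 2 h 294 genes passed (2.3%). On the deposited scale these counts were 5 higher and 38 lower at 4 h, and 10 higher and 21 lower at 0 h, where the median gap of all genes shifted to -0.14 and -0.09. The gaps at 4 h and 0 h come from separate arrays. They shared 172 genes, which was 56.2% of those at 4 h and 40.8% of those at 0 h. Of these, 171 had the same direction, and Sphk1 was the 1 with opposite directions. Leaving out 1 array moved the count at 4 h to 154 (KO 4 h array A), 102 (KO 4 h array B), 127 (WT 4 h array A) and 103 (WT 4 h array B). At 0 h it became 232 (KO 0 h array A), 218 (KO 0 h array B), 327 (WT 0 h array A) and 192 (WT 0 h array B).

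**Figure D2:**
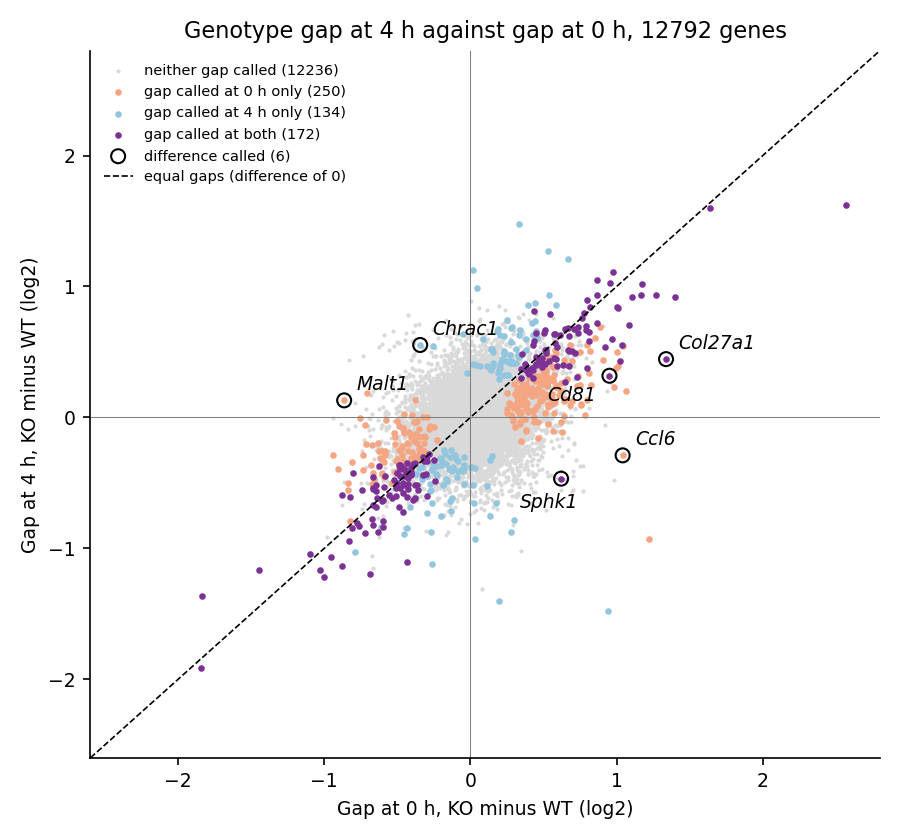
Gap between KO and WT at 4 h (vertical, log2) against the gap at 0 h (horizontal, log2) for 12792 genes, coloured by the time at which the gap passed. The dashed line marks equal gaps, circles mark the 6 genes whose difference passed, and of the 172 genes with both gaps Sphk1 is the 1 with opposite signs.

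A gap at 3 times, always in 1 direction, was found for 128 genes, 52 higher and 76 lower in KO, and Cd81 was the only one of the 128 whose difference also passed. Of the 12 widest gaps at 4 h (6 in each direction), 6 also passed at 0 h, and of the 12 widest at 0 h, 11 also passed at 4 h, Prdm11 being the other one. Serpinb9b, a serine protease inhibitor gene, measured 1.91 lower in KO at 4 h and 1.85 lower at 0 h on the log2 scale, and its difference was -0.07 ± 0.12 (adjusted p = 0.979). Tex14, known from the intercellular bridges of germ cells, had gaps of -1.36 at 4 h and -1.84 at 0 h (difference 0.48, adjusted p = 0.708). Rnf152, a ubiquitin ligase gene, had gaps of -1.16 and -1.03, and Myom1, a sarcomere protein gene, -1.17 and -1.45. Above 0, the monocyte attractant Ccl12 had gaps of 1.60 at 4 h and 1.64 at 0 h, with a difference of -0.04 (adjusted p = 0.996). Its relative Ccl7 had 0.93 and 1.27, and the scavenger receptor gene Marco 0.92 and 1.40, with differences of -0.33 (adjusted p = 0.82) and -0.47 (adjusted p = 0.817). Genes in this paragraph were chosen after their values were seen. On the other side, Sema3f, a semaphorin gene, had a gap of 1.48 at 4 h and 0.33 at 0 h (adjusted p = 0.76), and the homeobox gene Emx1 1.12 and 0.02 (adjusted p = 0.985), yet their differences of 1.15 ± 0.49 (adjusted p = 0.795) and 1.10 ± 0.35 (adjusted p = 0.623) did not pass. Both had low signals, with WT 4 h arrays at 4.70 and 4.76 for Sema3f and at 4.59 and 4.24 for Emx1, around the filter level of 4.73. The Sema3f difference was 2.26 on the A arrays and 0.03 on the B arrays, and the Emx1 gap at 2 h was -0.975.

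The median gap of the genes that passed higher at 0 h was 0.52 at 0 h, 0.30 at 2 h and 0.28 at 4 h. For those that passed lower at 0 h it was -0.48 at 0 h, -0.43 at 2 h and -0.39 at 4 h. The value at 0 h chose these genes, so the medians are a description and were not tested. For genes chosen by the gap at 4 h the medians were 0.45, 0.36 and 0.53 for the higher ones and -0.38, -0.40 and -0.50 for the lower ones at 0, 2 and 4 h.

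Macrophage and monocyte markers differed with the genotype label at 0 h and at 4 h. Of 16 such markers tested, 7 were higher in KO at 4 h and 11 at 0 h, and 0 were lower at either time. In the difference 0 of them passed, against 0.0469% of all genes. Their median gap was 0.42 at 4 h and 0.50 at 0 h, against 0.02 and 0.04 over all genes. Their summed normalized signal was 5855 and 5996 in KO at 4 h, against 4231 and 4031 in WT at 4 h. At 0 h it was 7284 and 7158 in KO, against 4581 and 4407 in WT. KO arrays had the higher sum at each time. Of 21 B cell markers 2 were higher in KO at 4 h and 4 at 0 h, and of 20 stromal and endothelial markers 1 and 3, with 0 lower. The share of all genes that passed higher in KO was 1.13% at 4 h and 1.95% at 0 h. Above the filter were 20 of 22 listed stromal and endothelial markers, 20 of 24 T cell markers and 23 of 25 conventional dendritic cell markers. Passing the filter therefore does not show that a cell type was present. Of the 23 conventional dendritic cell markers, 3 were higher in KO at 4 h and 5 at 0 h, with 0 lower. They had sums from 24990 to 28060 at 4 h and from 23930 to 27290 at 0 h. Migratory dendritic cell and Langerhans markers went the other way. Of 17 tested, 0 were higher and 2 lower in KO at 4 h, and 1 higher and 2 lower at 0 h. Their sums at 4 h were 72470 and 71540 in KO, against 76690 and 78860 in WT. Of all genes, 1.26% passed lower in KO at 4 h and 1.35% at 0 h. In bulk samples, more cells of a type and more RNA per cell cannot be told apart. The part of these cells in the differences of Ccl6, Cd81 and Col27a1 was not tested.

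Below the threshold, the nearest gene was Clcn5, an endosomal chloride and proton exchanger, at adjusted p = 0.0501. It measured 7.13 and 7.54 in KO arrays at 4 h, against 8.85 and 8.64 in WT arrays at 4 h, and 8.33 and 8.28 in KO arrays at 0 h, against 8.04 and 8.18 in WT arrays at 0 h. The difference was -1.60 ± 0.27, nearly all from the gap of -1.40 at 4 h. This is an _x_at probe set, and the other 3 probe sets of Clcn5 gave 0.23, -0.30 and -0.28.

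Ccl9, a myeloid chemokine whose gene neighbours Ccl6 on chromosome 11, came next (adjusted p = 0.0728). It measured 9.23 and 9.41 in KO arrays at 4 h, against 9.33 and 9.27 in WT arrays at 4 h, so the groups overlapped. At 0 h it measured 8.63 and 8.45 in KO arrays, against 7.82 and 7.70 in WT arrays, with no overlap. The difference was -0.76 ± 0.13, with a gap of 0.02 at 4 h and 0.78 at 0 h (adjusted p = 2.14e-04), and its 2 probe sets gave -0.76 and -0.80. Ccl6 and Ccl9 thus both had higher KO values at 0 h, but the difference of Ccl9 did not pass.

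The 20 genes of smallest p that did not pass, chosen after their values were seen, had adjusted p between 0.0501 and 0.365. Their differences were lower for 18 and higher for 2. The gap passed at 4 h for 10 of them and at 0 h for 7, with 1 in both counts and 4 in neither. The gene in both counts was Acadm, the medium-chain acyl-CoA dehydrogenase, with gaps of -1.20 at 4 h and -0.69 at 0 h (difference -0.51, adjusted p = 0.267). The serotonin receptor gene Htr7 had a gap of -0.52 at 4 h and 0.11 at 0 h (adjusted p = 0.217 for the difference), and Pdcd1lg2, which encodes the T cell inhibitory ligand PD-L2, had -0.64 and -0.14 (adjusted p = 0.365). Ccl17, a ligand for Ccr4 on T cells, had -0.30 and 0.14 (adjusted p = 0.365). The proliferation marker Mki67 had -0.18 and 0.35 (adjusted p = 0.365). Lce1h and Prdm11 had the lowest differences, at -2.42 ± 0.48 and -2.15 ± 0.42, and both were close to the filter, with all values between 4.36 and 6.42.

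**Figure D3:**
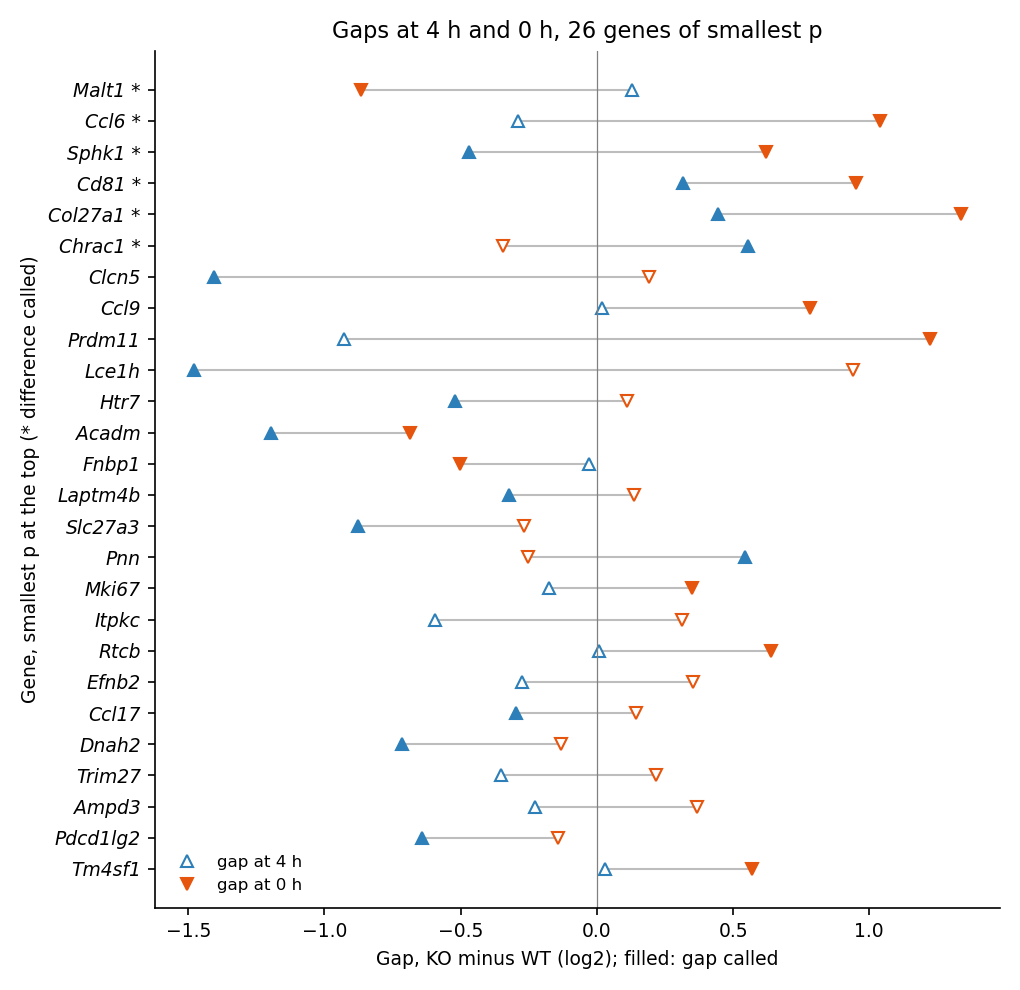
Gap between KO and WT (log2) at 4 h (blue, pointing up) and at 0 h (orange, pointing down) for the 26 genes of smallest p in the difference, smallest at the top. Filled symbols are gaps that passed, and the grey line between them is the difference of the 4 h response. Malt1 and Ccl6 have a filled symbol only at 0 h, and Chrac1 only at 4 h.

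The change from 0 h to 4 h passed for 2315 genes in KO (18.1%) and for 2330 genes in WT (18.2%). These lists come from separate arrays and shared 1599 genes, which was 69.1% of the KO list and 68.6% of the WT list, with 1595 in the same direction. Across the 12792 genes, which are not independent replicates, the responses had a Pearson r of 0.757. Of the 716 genes that passed in KO only, 1 also passed in the difference, which was Malt1, and of the 731 that passed in WT only, 1 did, which was Sphk1. Passing in 1 genotype and not in the other thus rarely came with a difference that passed. The share of all 12792 genes that passed in the difference was 0.0469%, the background here and for the sets below. Among 147 genes whose mean response over both genotypes was at least 1 on the log2 scale, the median response was 1.33 in KO and 1.37 in WT, and 3 passed in the difference. Among 86 genes at -1 or lower the medians were -1.19 and -1.27, and 0 passed.

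**Figure D4:**
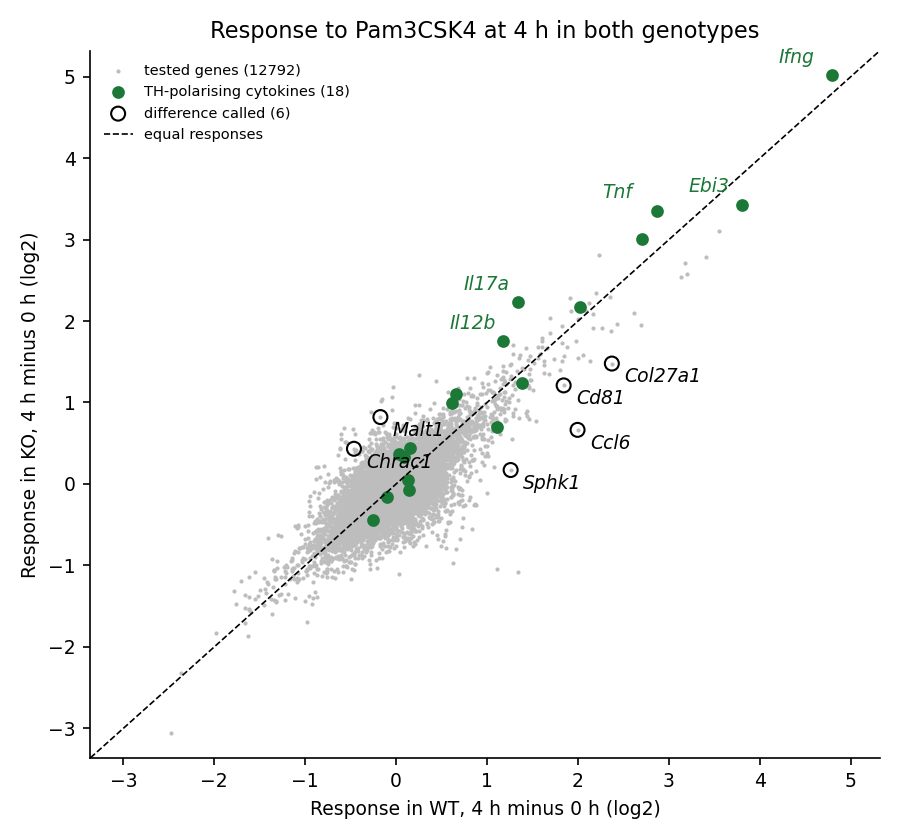
Response at 4 h in KO (vertical, log2) against the response in WT (horizontal, log2) for 12792 genes, with 18 TH-polarising cytokines in green and the 6 genes that passed circled. The dashed line marks equal responses, Ccl6, Sphk1, Cd81 and Col27a1 lie below it, and Malt1 and Chrac1 lie above it.

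Cytokines that steer T helper cells were read one by one. The list is not limited to products of dendritic cells, and bulk arrays cannot show which cells made a message. Of 18 measured, 0 passed in the difference and 7 had an unadjusted p under 0.05, against 0.0469% and 6.06% of all genes. Their median difference was 0.23, against -0.02 over all genes, and 11 were above 0. In the 4 h response 13 rose in KO and 11 in WT, beside 926 in KO and 1063 in WT of all 12792 genes. Il17a, the T cell and innate lymphocyte cytokine, had the highest difference, at 0.89 ± 0.22 (adjusted p = 0.365). It measured 7.89 and 7.68 in KO arrays at 4 h, against 7.65 and 7.55 in WT arrays at 4 h, and 5.38 and 5.73 in KO arrays at 0 h, against 6.26 and 6.27 in WT arrays at 0 h. Its gap was 0.18 at 4 h and -0.71 at 0 h, and the gap at 0 h passed (adjusted p = 0.0166).

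Ebi3, a subunit shared by heterodimeric cytokines of the IL-12 family, rose 10.8-fold in KO and 14-fold in WT. It measured 11.15 and 11.14 in KO arrays at 4 h, against 10.90 and 10.85 in WT arrays at 4 h. Before the ligand, at 0 h, values were 7.69 and 7.74 in KO arrays, against 7.08 and 7.06 in WT arrays. KO was higher at both times, and the difference was -0.38 ± 0.09 (adjusted p = 0.371). Tnf, an early inflammatory cytokine, had a gap of 0.68 at 4 h (adjusted p = 0.00991) and 0.19 at 0 h (adjusted p = 0.583), with a difference of 0.49 ± 0.18 (adjusted p = 0.712). The interleukin-1 family member Il1a had a gap of 0.63 at 4 h (adjusted p = 0.0314) and a difference of 0.30 ± 0.21 (adjusted p = 0.925). Il12b, the shared subunit of IL-12 and IL-23, had a difference of 0.57 ± 0.26 (adjusted p = 0.82), and Il12a one of 0.16 ± 0.24 (adjusted p = 0.977). The anti-inflammatory Il10 stood lowest, at -0.41 ± 0.26 (adjusted p = 0.914). Ifng, the strongest riser of the list, had 0.22 ± 0.15 (adjusted p = 0.922), and Il6 -0.13 ± 0.08 (adjusted p = 0.914).

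**Figure D5:**
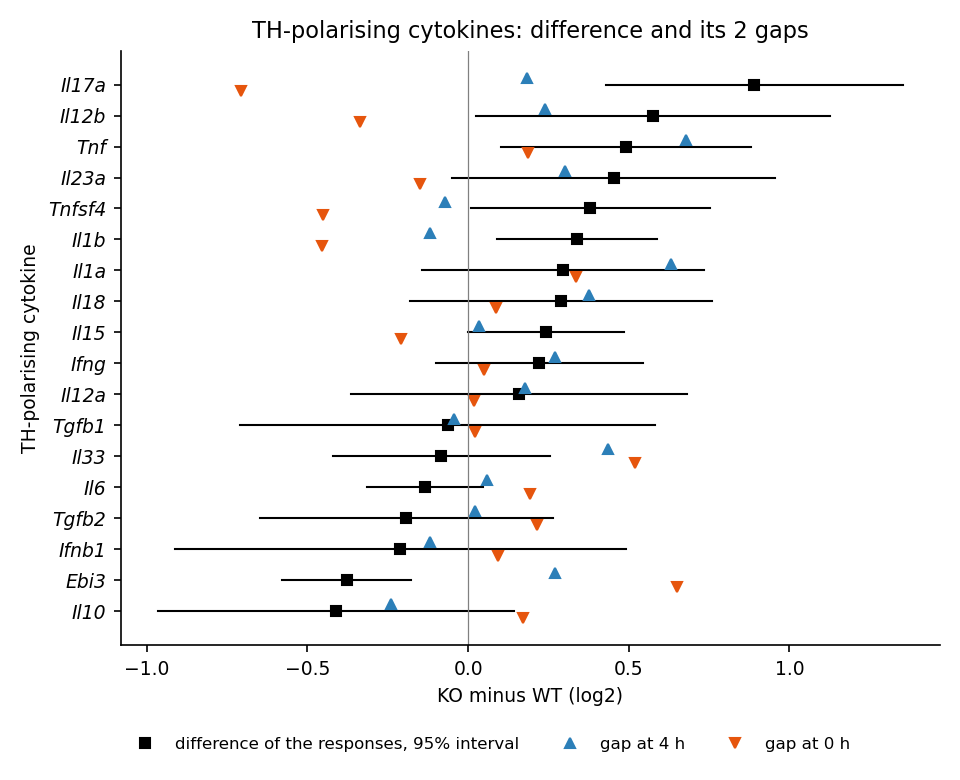
Difference of the 4 h response between KO and WT (log2, black squares with 95% intervals) for 18 TH-polarising cytokines, with the gap at 4 h (blue, pointing up) and at 0 h (orange, pointing down). Il17a is highest at 0.89 and Il10 lowest at -0.41, and no difference passed after adjustment.

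Over 30 pathway lists and 12 marker lists, the difference passed for 1 of 27 chemokines (Ccl6) and 1 of 36 genes listed as NF-kB targets (Malt1). It passed for 0 members of every other list. Malt1 counts here by membership of the list, and its change in WT did not pass (adjusted p = 0.208). Among all 12792 genes tested the difference passed for 6 (0.0469%). The chemokine differences ran from -1.33 to 0.47 with a median of 0.02, while 6 chemokines were higher and 1 lower in KO at 4 h, and 9 were higher and 0 lower at 0 h. At 4 h the gap passed higher for 1.13% of all genes and lower for 1.26%. At 0 h it passed higher for 1.95% and lower for 1.35%, the background for the gaps of the lists that follow too. The NF-kB targets ran from -0.26 to 0.99 with a median of -0.01. The 40 members of the p38 and MAPK pathway list had a median of -0.02 and a range from -0.41 to 0.47, and 1 of them was higher in KO at 4 h and 0 at 0 h. Dual-specificity phosphatases, which switch these kinases off, had a median of 0.02 over 19 genes. The 37 messages with AU-rich elements, whose decay p38 is known to slow, had a median of 0.01, and 7 were higher and 3 lower in KO at 4 h against 5 higher and 2 lower at 0 h. For co-stimulation and maturation genes, the median was -0.03 over 28 genes. Macrophage, complement and scavenger genes had a median difference of -0.11 over 35 genes, with 10 higher in KO at 4 h and 14 at 0 h. Of 15 genes of MHC class II presentation 4 were higher in KO at 4 h and 4 at 0 h, with a median difference of 0.02.

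Mapk14 itself did not check the genotype labels. It measured 8.04 and 7.93 in KO arrays at 4 h, against 7.56 and 7.75 in WT arrays at 4 h, and 8.37 and 8.37 in KO arrays at 0 h, against 8.41 and 8.02 in WT arrays at 0 h. The gap was 0.33 at 4 h (adjusted p = 0.274) and 0.15 at 0 h (adjusted p = 0.686), and the difference was 0.17 ± 0.19 (adjusted p = 0.961). Of the 6 Mapk14 probe sets, 3 of them above the filter, 5 were higher in KO at 4 h, with gaps from -0.20 to 0.33, and 5 were higher at 0 h, with gaps from -0.23 to 0.35. Probe sets outside a deleted part of the gene would not show its loss, and where the deletion lies is not given in the sources used here. Every direction above therefore refers to the arrays as labelled KO and WT.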

How the data were processed

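RNA was hybridised to 12 Affymetrix mouse 3' arrays, 2 per genotype label and time. The deposited values are intensities, 1 linear signal per probe set, made with MAS5 per the submitters' processing notes; version and scaling target are not given in the sources used here. Because array scales differed (trimmed means of the 12 arrays 1.79-fold apart), signals were quantile normalized and tested as log2(signal + 16), a scale that understates changes of low genes. A gene was read by its probe set of highest mean, kept at or above the 40th percentile of all probe sets (4.73), which left 12792 of 18194 genes. One limma 3.58.1 model (R 4.3.3) of 6 group means over 12 arrays, eBayes with trend (6 residual and 9.13 prior degrees of freedom), gave two-sided p-values, Benjamini-Hochberg adjusted per comparison, called under 0.05. The number of arrays limits the precision, and intervals are 95% from the model.

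Genes named are Mapk14, the called differences, the measured TH-polarising cytokines and called members of the 42 lists; others are marked as chosen after their values were seen. Members and lists were chosen with earlier results of these data known. Promoter windows and gene order come from RefSeq (GRCm38.p6). Alternatives covered scale, pseudocount, filter, probe set choice, variance model, arrays fitted, threshold and each array left out.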

Additional observations from a re-analysis of the deposited data

Results flagged for a closer look

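The test of the difference between the genotypes in the 4 h response, KO minus WT on the log2 scale, singled out 6 genes. They were Malt1 at 0.99, Chrac1 at 0.90, Cd81 at -0.63, Col27a1 at -0.89, Sphk1 at -1.09 and Ccl6 at -1.33. Each value comes from 2 arrays per group. The difference had the same sign on the A arrays as on the B arrays for all 6 genes. The calls were made from these same arrays, so the shared sign is a description and no further support. For Malt1 and Ccl6, the gap at 4 h did not pass.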

How the results depend on the processing

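No difference of a named gene that passed changed its direction under 21 alternatives, but the counts moved. The main counts were 2 higher and 4 lower differences, 306 gaps at 4 h, 422 gaps at 0 h, and a split into 1 difference with a gap at 4 h only, 2 at 0 h only, 3 at both and 0 at neither. On the deposited scale there were 0 higher and 2 lower differences, 43 gaps at 4 h and 31 at 0 h, with 0 differences split to 0 h only and 1 to both. Without the variance trend there were 0 higher and 0 lower, with 85 gaps at 4 h and 116 at 0 h, and every class of the split had 0. The mean of all probe sets gave 0 higher and 0 lower, 198 gaps at 4 h, and 0 in every class. With no filter there were 1 higher and 2 lower, with 0 at 4 h only and 0 at both. A pseudocount of 1 gave 1 higher and 0 at 4 h only, as did leaving out _x_at and _s_at sets. Trimmed-mean scaling, the 60th percentile filter and the fit of 8 arrays each gave 2 at 4 h only, and the last gave 0 at both. A threshold of 0.1 gave 478 gaps at 4 h, adding Clcn5 and Ccl9 to the differences. Requiring a log2 size of at least 1 left 0 higher and 2 lower, 24 gaps at 4 h and 23 at 0 h, and a split of 0, 1, 0 and 1. Leaving out 1 array gave 0 to 2 higher, 0 to 4 lower, 102 to 318 gaps at 4 h and 192 to 403 at 0 h, and a split with 0 to 1 at 4 h only, 0 to 3 at 0 h only and 0 to 2 at both. The cause of these moves was not tested. No pairing of the arrays by letters A and B was seen, with correlations of their deviations between -0.04 and 0.10 over 15 pairs of groups. Such low correlations cannot show that the letters were unpaired. With the letter as a replicate block, 2 higher and 4 lower differences remained, the same 6 genes, with 345 gaps at 4 h and 464 at 0 h, 1 difference at 4 h only, 2 at 0 h only, 3 at both and 0 at neither. Over all 27061 probe sets above the filter, 2 differences passed, those of Malt1 and Ccl6.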
